A study of Mus musculus with 48 samples.

Results

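Old and adult mouse epidermis were compared at Zeitgeber time 4 (ZT4), that is 4 h after lights on, in the resting phase of a nocturnal animal. The comparison used 8 of the 48 libraries of the series: 4 from adult mice of 18 to 25 weeks and 4 from aged mice of 80 to 90 weeks, chosen by their labels of age and time alone. All 24996 genes of the deposited count table were considered, and 18044 passed the filter on low counts. Each library held total RNA of a suspension of epidermal cells with ribosomal RNA removed, so transcripts without a poly(A) tail and unspliced ones also counted. The sources used here do not state strain, sex or the number of mice per library, and both ages are described without a transgene or treatment. Whether replicates come from different animals is not labelled. The p-values therefore speak of the spread between these libraries, which may be technical, and age and genetic background cannot be told apart by the labels.

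The epidermis is a layered epithelium in which basal keratinocytes divide on the basement membrane, move up, differentiate and form the barrier, while hair follicles, sebaceous glands, Langerhans cells and T cells lie within it. Keratinocytes carry a circadian clock in which BMAL1 (encoded by Arntl) and CLOCK bind E-box sequences and drive the genes of their own repressors. YAP, the effector of the Hippo pathway, enters the nucleus and acts through TEAD proteins bound to DNA. The series title names BMAL1, YAP, enhancers and inflammation in the aged epidermis. Inflammatory caspases cleave precursors of interleukins and the pore protein gasdermin D once a pattern receptor has assembled an inflammasome.

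The 8 libraries held between 41956733 and 46468450 counts, which lets a library with no count of a gene hold up to 3 counts of it, counting error only. Levels are given in CPM, which divides each count by the library's scaled total. Keratinocyte markers were abundant in all 8: Krt14 ran from 1545 to 3591 CPM and Krt10 from 3213 to 6818 CPM. Adipoq, which marks fat cells, did not exceed 0.0609 CPM. The libraries differed in which other cells they held. Krt71, a keratin of the inner root sheath of growing hair follicles, was at 277 CPM in adult replicate 2 and 364 CPM in aged replicate 3, and between 2.46 and 56.1 CPM in the other libraries. Aged replicate 3 was also highest in the dermal collagen gene Col1a1 (8.47 CPM, against 0.321 to 2.99 CPM elsewhere). The Langerhans cell marker Cd207 was highest in replicate 1 of both ages (6.54 CPM in adult and 9.45 CPM in aged). The first components of a principal component analysis on 3000 genes, with 47.0% and 20.2% of the variance, did not separate the ages. The third, with 13.0%, did: adult libraries lay between -23.8 and -9.46 and aged libraries between 8.65 and 19. In bulk RNA, fewer cells of a type and less RNA per cell cannot be told apart.

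**Figure D1:**
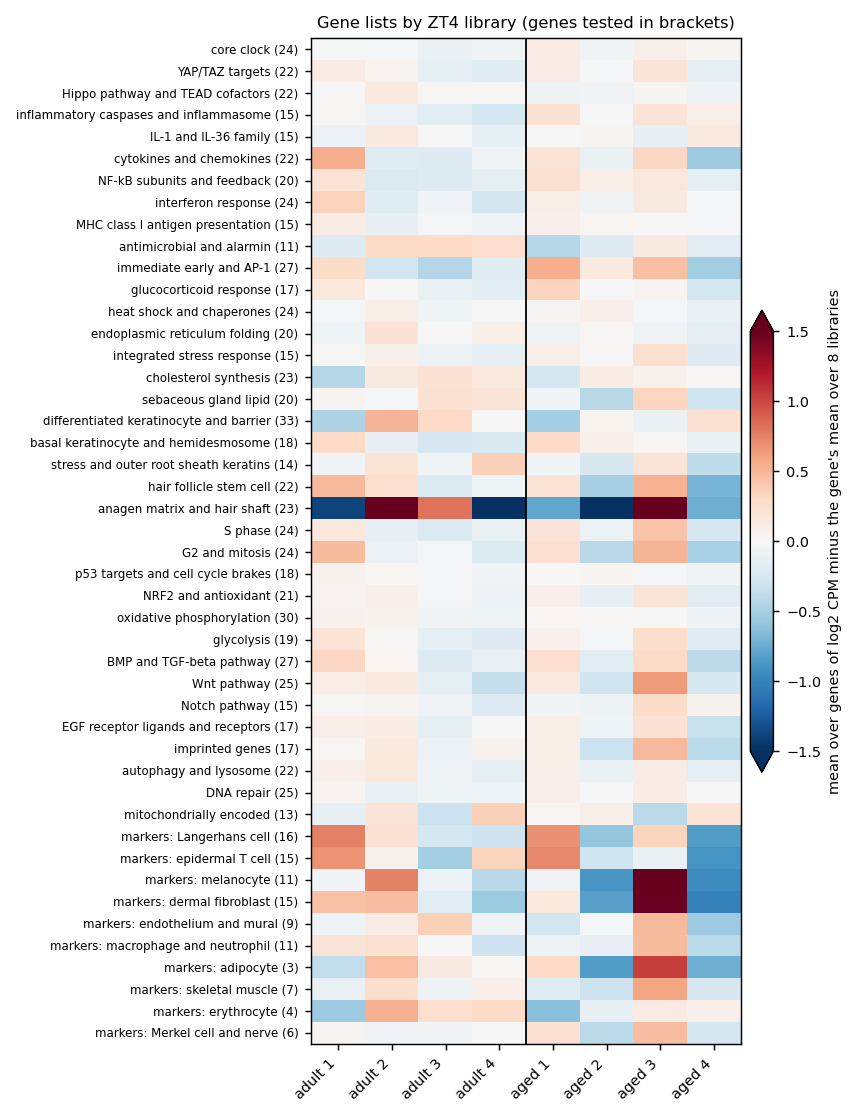
Means of 46 gene lists (rows, with the number of genes tested) in the 8 ZT4 libraries (columns), as log2 CPM minus each gene's mean over the libraries, with colours ending at 1.5 in each direction. The anagen and hair shaft list ran from -2.25 to 3.52 and was highest in adult replicate 2 and aged replicate 3, so the strongest colours do not follow age.

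In total 114 of 18044 genes (0.632%) differed between the ages at an adjusted p under 0.05 in edgeR's quasi-likelihood test, fitted on all 48 libraries. Of these, 66 (0.366%) were higher and 48 (0.266%) lower in aged epidermis. The median log2 fold change was 0.80 among the rises and -1.06 among the falls, against 0.01 over all genes tested. A change of at least 1 on the log2 scale was reached by 26 rises and 25 falls. In 107 of the 114 genes all aged libraries lay on one side of all adult libraries, as they did in 4.48% of all genes. The annotation lists 98 of the 114 as protein coding. At an unadjusted p under 0.05 there were 778 genes higher and 569 lower. Leaving out 1 library moved the rises to between 28 and 80 and the falls to between 21 and 51. The lowest counts came without adult replicate 2 (28 and 22), adult replicate 4 (36 and 23), aged replicate 2 (35 and 21) and aged replicate 4 (41 and 21). Of the 114 genes, 42 were called in all 8 such fits.

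**Figure D2:**
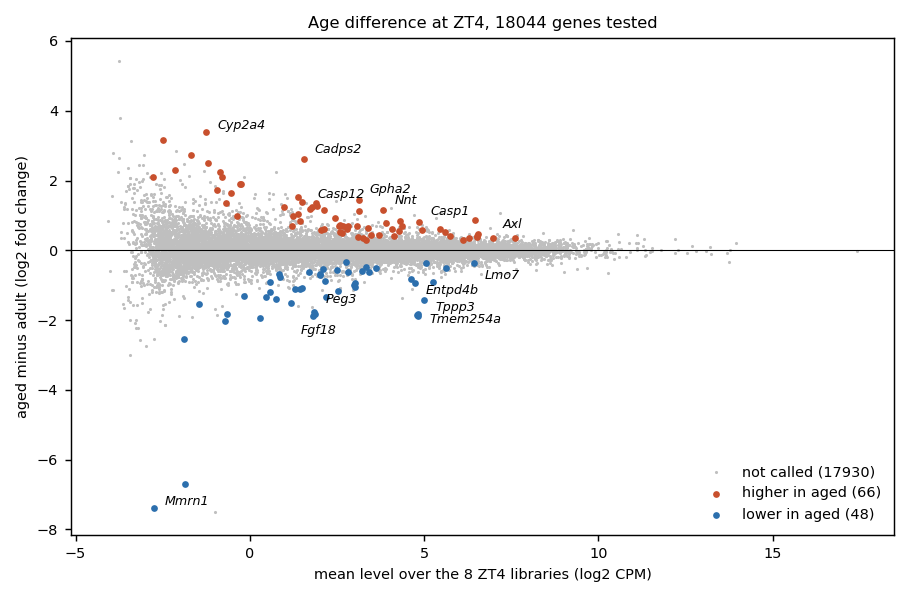
Aged minus adult log2 fold change at ZT4 (vertical axis) against mean level in log2 CPM (horizontal axis) for the 18044 genes tested. Orange points are the 66 genes higher and blue points the 48 genes lower in aged epidermis; most called genes of high level, such as Axl (0.34) and Lmo7 (-0.37), differed little, and Cadps2 (2.63) stands apart among the rises with a mean log2 CPM of 0 or more.

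The inflammatory caspases Casp1, Casp4 and Casp12 were each higher in aged epidermis. Of 15 inflammasome genes tested, 4 were called higher and 0 lower: Casp1, Casp4, Casp12 and Card6. Over all genes tested, 0.632% were called. The list was chosen with earlier results of these data known, so its count is no test of it. The median over the list was 0.10. Casp1, which cleaves the precursors of interleukins 1 beta and 18, was at 18.5, 24.8, 21.7 and 22.5 CPM in the adult libraries and at 36.2, 42.5, 35.7 and 39.7 CPM in the aged ones. The groups did not overlap, and Casp1 rose by 0.82 (SE 0.12; adjusted p = 2.88e-05, edgeR), a 1.76-fold difference. Casp4, the mouse sensor of cytosolic lipopolysaccharide, was at 17.6, 15.5, 14.7 and 16.3 CPM in adult and 27.8, 29.3, 23.8 and 23.6 CPM in aged libraries. It too was higher in every aged library and rose by 0.71 (SE 0.13; adjusted p = 0.00239, edgeR). Casp12, a caspase of the same family, was at 3.15, 1.85, 1.60 and 2.21 CPM in adult and 5.97, 5.56, 4.12 and 4.45 CPM in aged libraries. Its rise was 1.19 (SE 0.24; adjusted p = 0.00521, edgeR), and the lowest aged value lay above the highest adult value. The 3 caspases kept their calls without any 1 library, with adjusted p of at most 0.000477, 0.0215 and 0.0464. In a fit on the 8 ZT4 libraries alone, Casp1 and Casp4 kept their calls and Casp12 lost its call.

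These 3 genes are neighbours on chromosome 9 (GRCm38): Casp1 from 5298517 to 5307281, Casp4 from 5308849 to 5336791 and Casp12 from 5345442 to 5373034. Their annotated transcripts shared 0% of their 50-base stretches; unspliced sequence was not compared. Card6, which carries the same caspase recruitment domain as many inflammasome adaptors, lies on chromosome 15. It was at 3.57, 3.34, 2.86 and 3.59 CPM in adult and 4.09, 5.85, 4.39 and 5.88 CPM in aged libraries. The groups were close but apart, with a rise of 0.60 (SE 0.14; adjusted p = 0.032, edgeR). The call of Card6 did not hold without adult replicate 2, 3 or 4 or aged replicate 2 or 4, with adjusted p between 0.0667 and 0.176.

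The substrates and signals of these caspases did not pass the test. Il18 was at 1.45, 2.34, 1.13 and 0.904 CPM in adult and 3.36, 3.12, 2.78 and 3.44 CPM in aged libraries. The groups were apart; edgeR's log2 fold change was 1.12 (SE 0.30) and its adjusted p 0.0728. Il1b lay between 0.452 and 0.903 CPM in adult and between 0.568 and 0.853 CPM in aged libraries, with a log2 fold change of -0.08 (95% interval -0.98 to 0.82). The inflammasome sensor Nlrp3 did not exceed 0.286 CPM in any library. None of the 15 genes of the interleukin 1 and 36 family was called (median -0.03), nor any of 22 cytokines and chemokines (median -0.08); without adjustment each list had 1 gene higher and 1 lower. Among 20 genes of NF-kB and its feedback none was called and 17 had a positive log2 fold change (median 0.10), where 53.2% of all genes tested were positive. Bcl3, a nuclear cofactor of NF-kB, came closest, with 1.91 CPM in adult and 3.27 CPM in aged libraries on average (0.78, SE 0.22; adjusted p = 0.0977, edgeR). Lists of 24 interferon response genes and 15 genes of class I antigen presentation had no call either, with medians of 0.05 and 0.01.

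Outside the lists, several called genes act in innate sensing; they were picked after their values were seen. Wdfy1, an endosomal adaptor of Toll-like receptors, was at 24.6, 23.6, 24.9 and 27.7 CPM in adult and 38.3, 37.6, 38.7 and 36.4 CPM in aged libraries. Both groups were tight and apart, and Wdfy1 rose by 0.58 (SE 0.09; adjusted p = 0.000132, edgeR). Alpk1, a kinase that senses a bacterial sugar, rose by 0.71 (SE 0.14; adjusted p = 0.00433), from a mean of 6.56 to 10.7 CPM; without adult replicate 2 or aged replicate 4 its call was lost (adjusted p of at most 0.0563). Tlr6, a receptor of bacterial lipopeptides, rose from a mean of 0.0801 to 0.404 CPM, which is a few counts per adult library. C2, a complement protease, was at 9.64, 5.26, 5.30 and 4.02 CPM in adult and 16.7, 12.0, 14.2 and 10.1 CPM in aged libraries. The groups lay close at their edges. C2 rose by 1.13 (SE 0.28; adjusted p = 0.0361, edgeR), a call that held in 2 of the 8 fits without 1 library. Mndal, an interferon-inducible gene of the p200 family, rose by 0.99 (SE 0.23; adjusted p = 0.0279), from a mean of 1.66 to 3.31 CPM. The call of Mndal held in 4 of these 8 fits. In the other direction, the lysosomal thiol reductase Ifi30, which prepares antigens for class II molecules, fell by 0.36 (SE 0.09; adjusted p = 0.0497), and its call was lost in all 8 fits that left out 1 library.

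**Figure D3:**
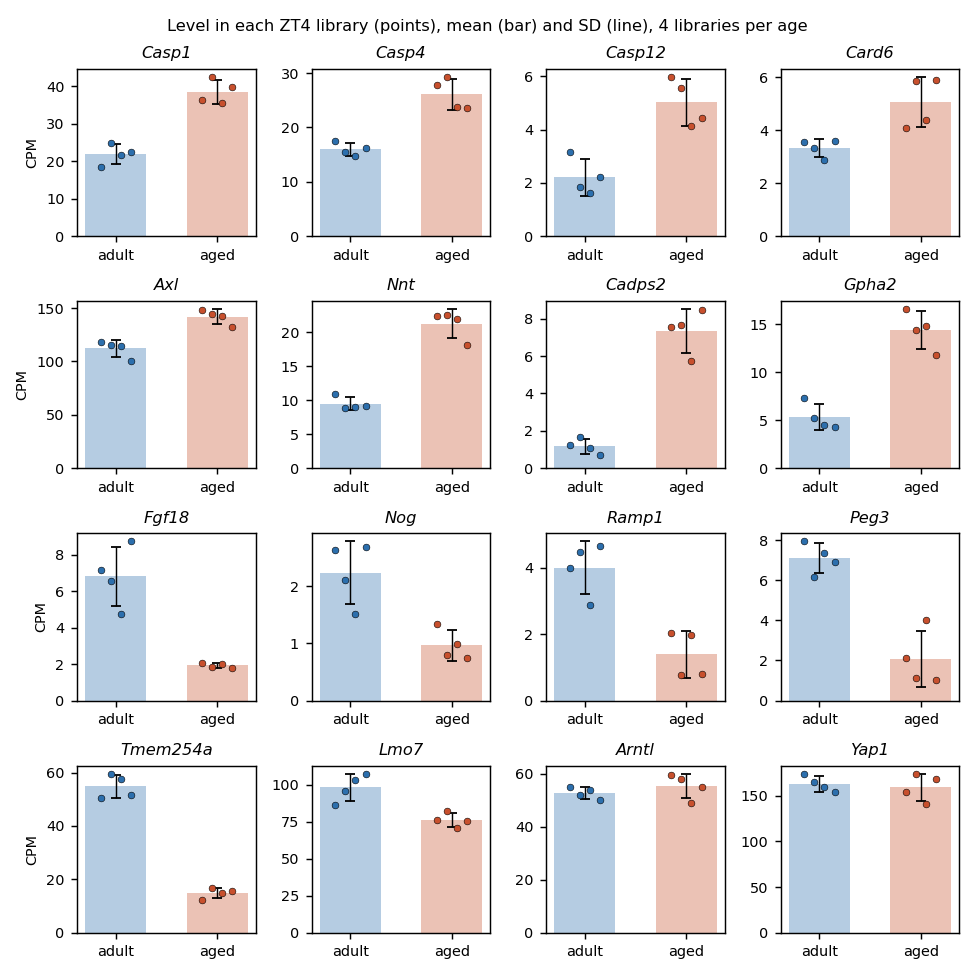
CPM in each ZT4 library for 16 genes; points are libraries, bars the mean and lines the SD of 4 libraries per age, with axes starting at 0. In the first 14 panels the ages do not overlap, from Casp1 (means of 21.9 and 38.5 CPM) to Lmo7 (98.1 and 76.1 CPM); in those of Arntl (52.7 and 55.4 CPM) and Yap1 (163 and 159 CPM) they do.

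The transcripts of the clock did not pass the test at this time. None of 24 core clock genes was called by edgeR (2 higher and 0 lower at an unadjusted p under 0.05), with a median of 0.05. Arntl was at 55.1, 51.9, 54.0 and 50 CPM in adult and 59.7, 57.9, 49.1 and 55.0 CPM in aged libraries. The groups overlapped, and the log2 fold change was 0.07 (95% interval -0.24 to 0.38). Clock, its partner, had a log2 fold change of 0.11 (95% interval -0.04 to 0.26). Nr1d1, which represses Arntl, averaged 78.2 CPM in adult and 76.7 CPM in aged libraries. Tef, an output of the clock that binds D-box sequences, was higher in every aged library (101 to 115 CPM, against 77.7 to 96.9 CPM), and edgeR's log2 fold change was 0.31 (SE 0.15), with an adjusted p of 0.624. The period gene Per2 was at 2.84, 3.60, 2.22 and 3.34 CPM in adult and 6.15, 2.36, 5.63 and 2.82 CPM in aged libraries, so the aged values spread around the adult ones.

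Nor did Yap1 or most of its pathway pass. Yap1 was at 174, 165, 159 and 154 CPM in adult and 154, 174, 141 and 168 CPM in aged libraries. These values overlapped, with a log2 fold change of -0.03 (95% interval -0.17 to 0.11) whose sign turned when 1 library, adult replicate 1 or aged replicate 3, was left out. None of 22 genes of the Hippo pathway and TEAD cofactors was called, also without adjustment (median -0.03). Of 22 YAP and TAZ targets, 1 was called: Axl, a receptor tyrosine kinase that binds Gas6. Axl was at 119, 116, 115 and 100.3 CPM in adult and 148, 145, 143 and 132 CPM in aged libraries, and the groups did not overlap. It rose by 0.34 (SE 0.09; adjusted p = 0.0451, edgeR), a 1.26-fold difference. This call held in 1 of the 8 fits that left out a library, the one without adult replicate 1; in the others its adjusted p was between 0.0571 (without aged replicate 4) and 0.283 (without adult replicate 4). The matricellular targets Ccn1 and Ccn2 varied widely: Ccn1 was at 188, 96.6, 67.4 and 70.4 CPM in adult and 250, 125, 222 and 65.0 CPM in aged libraries. Replicate 1 of both ages was high in both targets and also in immediate early genes, whose summed level ran from 6338 to 9698 CPM in adult and from 6219 to 11120 CPM in aged libraries. Of 27 immediate early genes none was called, 23 were positive and the median was 0.26; their part in the values of Ccn1 and Ccn2 was not tested.

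Promoters of Casp1, Axl and Cadps2 are shown because they belong to the called genes above and below and hold a 6-base match to a site of BMAL1 or of TEAD proteins. Each window runs from 250 bases before to 50 bases after a transcription start of RefSeq (GRCm38.p6), on the strand of the gene, and capitals mark CACGTG (the E-box) or GGAATG (a TEAD site, read on either strand, so also CATTCC).
Casp1, chr9:5298267-5298566, plus strand: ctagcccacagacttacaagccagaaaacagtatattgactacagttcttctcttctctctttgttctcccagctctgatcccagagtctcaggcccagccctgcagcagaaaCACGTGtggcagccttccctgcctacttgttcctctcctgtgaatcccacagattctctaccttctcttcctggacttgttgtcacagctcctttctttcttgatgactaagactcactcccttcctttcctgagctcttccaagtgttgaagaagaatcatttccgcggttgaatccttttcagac
Axl, chr7:25788684-25788983, minus strand: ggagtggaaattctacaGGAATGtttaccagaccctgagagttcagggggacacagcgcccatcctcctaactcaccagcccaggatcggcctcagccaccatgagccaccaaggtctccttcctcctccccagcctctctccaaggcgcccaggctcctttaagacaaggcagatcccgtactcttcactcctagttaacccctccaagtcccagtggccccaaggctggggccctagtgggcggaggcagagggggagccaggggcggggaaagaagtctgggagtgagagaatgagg
Cadps2, chr6:23839372-23839671, minus strand: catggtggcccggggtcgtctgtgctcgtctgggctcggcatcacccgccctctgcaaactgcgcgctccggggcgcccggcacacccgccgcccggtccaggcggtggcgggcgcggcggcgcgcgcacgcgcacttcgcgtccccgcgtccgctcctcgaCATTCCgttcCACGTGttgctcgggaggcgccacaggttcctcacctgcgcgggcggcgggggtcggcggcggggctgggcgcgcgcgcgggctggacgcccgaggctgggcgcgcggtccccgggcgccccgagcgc
The E-box began 137 bases before the start used for Casp1 and 78 bases before that used for Cadps2. A TEAD site began 233 bases before the start used for Axl and 88 bases before that used for Cadps2. The starts used for Axl and Cadps2 lie inside the annotated genes. On this strand the genes begin further out, at 25788924 for Axl and 23841175 for Cadps2. The whole Cadps2 window therefore lies within the gene. Promoters of this length often hold such matches: 6.73% of the 104 windows of called genes held the E-box, against 9.13% of the 16344 windows of genes tested. The TEAD site was in 12.5% and 12.9% of them. Windows were at hand for 77 of the 114 genes. A match describes these letters only, and binding was not measured here.

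The largest rise of the ranked genes was that of Cadps2, which primes secretory vesicles for exocytosis. It was at 1.25, 1.68, 1.07 and 0.729 CPM in adult and 7.53, 7.64, 5.73 and 8.48 CPM in aged libraries. The lowest aged value lay far above the highest adult value, and Cadps2 rose by 2.63 (SE 0.21; adjusted p = 8.54e-12, edgeR), a 6.18-fold difference. The gene lies on chromosome 6 from 23262773 to 23841175 (GRCm38). Gpha2, a subunit of the glycoprotein hormone thyrostimulin, was at 7.31, 5.26, 4.47 and 4.30 CPM in adult and 16.6, 14.4, 14.8 and 11.8 CPM in aged libraries. It was higher in every aged library and rose by 1.43 (SE 0.28; adjusted p = 0.0043, edgeR). Ajm1, a component of apical junctions, rose by 1.38 (SE 0.22), from a mean of 1.72 to 4.48 CPM, and the BEN domain gene Bend4 by 1.27 (SE 0.20), from 2.44 to 5.89 CPM. All 4 kept their calls in the 8 fits without 1 library.

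Nnt, the mitochondrial transhydrogenase that makes NADPH, was the 1 called gene of 21 genes of the NRF2 and antioxidant list, whose median was 0.03. It was at 10.9, 8.86, 9.04 and 9.22 CPM in adult and 22.5, 22.5, 22.0 and 18.1 CPM in aged libraries. The groups lay far apart, and Nnt rose by 1.16 (SE 0.15; adjusted p = 6.33e-06, edgeR), a 2.24-fold difference. Nnt is known to carry a partial deletion in the C57BL/6J substrain of mice and to be whole in others. Age and genetic background cannot be told apart for this gene, since the strain is not given in the sources used here.

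Metabolic and steroid enzymes were among the other rises. Akr1c13, an aldo-keto reductase, was at 2.11, 0.701, 1.58 and 1.96 CPM in adult and 5.73, 4.45, 5.12 and 3.07 CPM in aged libraries; it rose by 1.53 (SE 0.33; adjusted p = 0.0115, edgeR) with no overlap. Its neighbour Akr1c12 rose by 1.72 (SE 0.40), a call that held in 3 of the 8 fits without 1 library. The pair shares 24.2% and 28.6% of the 50-base stretches of their transcripts, so part of the reads may belong to either. Cyp2a4, a steroid hydroxylase picked after its values were seen, was at 0.198, 0.187, 0.0214 and 0.0754 CPM in adult and 1.54, 0.781, 1.95 and 0.816 CPM in aged libraries, and rose by 3.38 (SE 0.64; adjusted p = 0.00296, edgeR). All its aged values lay above all adult ones, at low levels throughout.

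Further rises were of varied function. Col16a1, a collagen of basement membrane zones that keratinocytes also make, was at 96.4, 60.9, 57.9 and 52.7 CPM in adult and 141, 128, 113 and 103 CPM in aged libraries. Replicate 1 was the highest of each age, the groups did not overlap, and Col16a1 rose by 0.86 (SE 0.21; adjusted p = 0.0391, edgeR). The call of Col16a1 held in 1 of the 8 fits without 1 library. Pls1, a bundler of actin filaments, rose by 1.36 (SE 0.33), from a mean of 2.37 to 6.09 CPM. Nav3, a protein of microtubule tips, rose by 1.15 (SE 0.27), from 3.07 to 6.83 CPM. Igfals, a carrier of insulin-like growth factors, rose by 1.25 (SE 0.29), from 1.30 to 3.10 CPM. The calls of Pls1, Nav3 and Igfals held in 1, 4 and 2 of those 8 fits. Ranbp17, a nuclear transport receptor, rose by 1.04 (SE 0.19), from 1.80 to 3.72 CPM. Pde1c, a phosphodiesterase of cyclic nucleotides, rose by 0.91 (SE 0.22), but 2 of its aged values lay within the adult range. The receptor gene Fgfr3, picked after its values were seen, was at 179, 175, 184 and 161 CPM in adult and 211, 224, 221 and 229 CPM in aged libraries, and rose by 0.34 (SE 0.08; adjusted p = 0.0285, edgeR) with no overlap. Its call was lost without adult replicate 2 or 4 or aged replicate 2, 3 or 4 (adjusted p of at most 0.168).

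The falls included Fgf18 and Nog, secreted factors that act on hair follicles in different ways. Fgf18, which holds follicle stem cells in the resting phase, was at 7.13, 6.57, 4.77 and 8.72 CPM in adult and 2.07, 1.84, 2.01 and 1.78 CPM in aged libraries. The aged values were tight and well below the adult ones, and Fgf18 fell by 1.82 (SE 0.27; adjusted p = 6.12e-05, edgeR), a 3.53-fold difference. It was the 1 called gene of 22 hair follicle stem cell genes, whose median was -0.18. Nog, a secreted antagonist of BMP signals that lets follicles enter growth, was at 2.64, 2.10, 1.52 and 2.69 CPM in adult and 1.34, 0.803, 0.995 and 0.742 CPM in aged libraries. The groups did not overlap and Nog fell by 1.20 (SE 0.25; adjusted p = 0.00916, edgeR), the 1 call among 27 genes of the BMP and TGF-beta pathway (median 0.05). Fgfbp3, which binds fibroblast growth factors and is not on the follicle list, fell by 1.12 (SE 0.26), from a mean of 3.67 to 1.69 CPM. Its adult values were 1.915, 3.646, 4.018 and 5.10 CPM, and its highest aged value was 1.905 CPM, so adult replicate 1 lay at the aged level. The call of Fgfbp3 held in 2 of the 8 fits without 1 library. Fgfbp3 lies on chromosome 19 from 36917550 to 36919599 (GRCm38), near Ide, which is described at the end.

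The hair shaft list, high in adult replicate 2 and aged replicate 3, had no call among 23 genes (median 0.40). In those libraries Fgf18 was at 6.57 and 2.01 CPM, within the range of the others of the same age. Without both libraries, in a fit added after seeing the data, 37 genes were higher and 30 lower, and Fgf18 was among them. Hair shaft genes mark growing follicles and give no measure of resting ones. The part of follicle content in the fall of Fgf18 was not tested.

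Ramp1, a partner of the receptor for the neuropeptide CGRP, was at 4.01, 4.46, 2.89 and 4.65 CPM in adult and 2.04, 0.758, 1.97 and 0.791 CPM in aged libraries. It fell by 1.52 (SE 0.33; adjusted p = 0.0142, edgeR) with no overlap. Peg3, an imprinted zinc finger gene expressed from the paternal copy, was at 7.95, 6.19, 7.37 and 6.91 CPM in adult and 2.11, 1.15, 4.04 and 1.01 CPM in aged libraries. All aged values lay below the adult ones, and Peg3 fell by 1.76 (SE 0.31; adjusted p = 0.0011, edgeR), the 1 call among 17 imprinted genes (median 0.12). The overlapping antisense gene Peg3os fell by 1.82 (SE 0.36); the strand setting of the counting is not given, so its reads and those of Peg3 cannot be told apart. Myoc, a secreted glycoprotein of connective tissue cells, was at 9.38, 6.47, 4.57 and 8.22 CPM in adult and 2.31, 1.13, 3.17 and 1.06 CPM in aged libraries, and fell by 1.89 (SE 0.47; adjusted p = 0.0391, edgeR).

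Within the aged group Ramp1, Peg3 and Myoc were higher in replicates 1 and 3 than in replicates 2 and 4. So were the dermal fibroblast markers, whose summed level was 164, 84.6, 212 and 64.2 CPM in the aged libraries and 166, 122, 89.0 and 92.2 CPM in the adult ones. The sums overlap between the ages, and 0 of 15 of these markers were called (10 positive, median 0.57). Other lists had the same order in the aged group, among them Langerhans cell markers (310, 156, 262 and 122 CPM). So did the sums of epidermal T cell markers, hair follicle stem cell genes and mitosis genes. In the adult group Peg3, Myoc and the dermal sum were highest in replicate 1, and Ramp1 in replicate 4. The part of dermal or other cells in these falls was not tested.

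Tmem254a, Tmem254b and Tmem254c, which encode near-identical membrane proteins, had the smallest p-values among the falls. Tmem254a was at 50.5, 59.6, 57.5 and 51.6 CPM in adult and 12.4, 16.7, 14.8 and 15.7 CPM in aged libraries. No aged library came near the adult range, and Tmem254a fell by 1.88 (SE 0.13; adjusted p = 5.4e-13, edgeR), Tmem254b by 1.85 and Tmem254c by 1.82. They lie on chromosome 14 between 25923298 and 26207025 (GRCm38). Between 73.1% and 100% of the 50-base stretches of their transcripts occur in another copy, so reads may be shared and which copy fell is uncertain. The same uncertainty holds for Entpd4b, a nucleotide phosphohydrolase on chromosome 14, which shares 100% with Entpd4; it fell by 0.94 (SE 0.08; adjusted p = 1.16e-11, edgeR), from a mean of 37.0 to 19.4 CPM.

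Falls also included genes of junctions, membranes and channels. Lmo7, a scaffold of cell junctions, was at 86.1, 95.7, 103 and 107 CPM in adult and 75.8, 82.1, 70.6 and 75.7 CPM in aged libraries. The groups were apart by a small gap, and Lmo7 fell by 0.37 (SE 0.06; adjusted p = 0.000132, edgeR). The ephrin receptor Ephb2 fell by 0.59 (SE 0.10; adjusted p = 0.00043), from a mean of 11.4 to 7.60 CPM, and the calcium channel gene Cacna1c by 0.94 (SE 0.17; adjusted p = 0.00205), from 11.3 to 5.90 CPM. These 3 genes were picked after their values were seen, and each kept its call in all 8 fits without 1 library. Each lost it in the fit on the 8 ZT4 libraries alone. Add2, a protein of the membrane skeleton, fell by 1.07 (SE 0.26), and Lhfpl1, a tetraspan membrane protein, by 1.16 (SE 0.24). Their calls held in 2 and 5 of the 8 fits without 1 library. Cryzl2, a relative of quinone reductases, fell by 1.40 (SE 0.22), Stag3, a cohesin subunit of meiosis, by 1.10 (SE 0.20) and Rps4l, a ribosomal protein retrogene, by 1.34 (SE 0.19). Tppp3, which promotes tubulin polymerisation, was at 39.1, 96.9, 41.5 and 45.6 CPM in adult and 30.4, 24.1, 16.5 and 12.6 CPM in aged libraries. Adult replicate 2 stood apart, the ages did not overlap, and Tppp3 fell by 1.42 (SE 0.34; adjusted p = 0.032, edgeR). Without adult replicate 2 its adjusted p was 0.388.

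Of the 30 genes ranked by the largest rise or fall, 15 kept their calls in all 8 fits without 1 library and none changed sign. Among those with a loss, adult replicate 2 ended 14 calls, aged replicate 2 ended 13, and adult replicate 4 and aged replicate 4 ended 12 each. Aged replicate 1 and adult replicate 3 ended 7 each, aged replicate 3 ended 5 and adult replicate 1 ended 4. The adjusted p of the lost calls was between 0.0503 and 0.39. Among the rises with a loss, the call held in 6 of the 8 fits for Akr1c13 and in 4 for Mndal and Nav3. It held in 3 for Pde1c, 2 for C2 and Igfals and 1 for Col16a1 and Pls1. Among the falls with a loss, it held in 5 for Lhfpl1 and Nog and in 4 for Ramp1. It held in 3 for Tppp3 and in 2 for Add2, Fgfbp3 and Myoc.

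Mmrn1, which encodes a multimerin of platelets and endothelium and was picked after its values were seen, had no count in the 4 aged libraries and 26, 16, 28 and 12 counts in the adult ones. Set against 3 counts over the aged group it was at least 27.5-fold lower (adjusted p = 0.00864, edgeR). Over the whole series Mmrn1 had 1 count in 24 aged libraries and 339 in 24 adult libraries, of which each had at least 1. Mmrn1 lies on chromosome 6 from 60944317 to 60989378 (GRCm38). Strain and substrain, which the sources used here do not state, cannot be told apart from age for this gene.

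Some called genes had starts near each other. Of 108 called genes with coordinates, 27 had another within 500 kb, in 11 runs, and in 8 runs all members moved one way. Uncalled genes between them were not considered. The matching share for all genes tested was not computed, so these counts do not show clustering. Several runs hold copies or overlapping genes whose reads may be shared, which are not separate changes. On chromosome 12, Srp54a, Fam177a, Srp54b, Fam177a2 and Srp54c, which fall within 55080476 to 55279331, rose by 0.40, 0.54, 0.46, 0.62 and 0.35; the Srp54 genes, of the signal recognition particle, share 70.5% to 93.9% of their 50-base stretches. Pcdhb14 and Pcdhb16, protocadherins of chromosome 18, rose by 0.69 and 0.70 with at most 0.3% shared; their calls held in 4 and 3 of the 8 fits without 1 library, and were lost in both without adult replicate 2 or 3 or aged replicate 2 or 4. The remaining runs that moved one way were Ksr1 with Gm11201 and Dynlt1b with Tmem181c-ps. Gm11201 lies within Ksr1, so reads of the pair may be shared, and Dynlt1b shares 83.2% of its 50-base stretches with Dynlt1a, Dynlt1c and Dynlt1f. In 3 runs the neighbours went opposite ways: Fgf18 fell and Ranbp17 rose on chromosome 11, Ramp1 fell and Scly rose on chromosome 1, and Nthl1 fell and Igfals rose on chromosome 17.

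Keratinocyte programmes gave no call by edgeR. Among 33 genes of differentiation and barrier, 27 were negative (median -0.17; 0 higher and 2 lower without adjustment). Among 18 of basal keratinocytes and hemidesmosomes 16 were positive (median 0.18; 1 higher and 1 lower without adjustment). Ivl, a precursor of the cornified envelope, averaged 131 CPM in adult and 81.9 CPM in aged libraries with overlap (-0.68, SE 0.28; adjusted p = 0.494, edgeR). Krt14, the basal keratin, averaged 1976 and 2662 CPM (0.43, SE 0.24; adjusted p = 0.734). The follicle keratin Krt79 was lower in every aged library, with means of 817 and 565 CPM (-0.53, SE 0.20; adjusted p = 0.386). The defensin Defb1 was lower in every aged library as well, with means of 35.6 and 23.2 CPM (-0.62, SE 0.17; adjusted p = 0.0967), on a list of 11 antimicrobial genes with no call (median -0.25). Of 20 sebaceous gland genes 16 were negative (median -0.23) and none was called. The stress and root sheath keratins (14 genes, median -0.11) had no call either; Krt76 was at 148 CPM in adult replicate 4, and without that library its log2 fold change turned from -7.50 to 0.37.

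Proliferation genes were not called: 22 of 24 S phase genes were positive (median 0.21) and 9 of 24 genes of mitosis (median -0.03). No gene was called among 18 p53 targets and cell cycle brakes (median 0.02) or 25 DNA repair genes, of which 23 were positive (median 0.10). The same was true of 30 genes of oxidative phosphorylation (median -0.0012), 13 mitochondrially encoded genes (-0.05) and 19 of glycolysis, 17 of them positive (0.06). Of 20 folding genes of the endoplasmic reticulum 18 were negative (median -0.08), and of 23 cholesterol synthesis genes 17 (median -0.07), with no call. Lists of heat shock genes (24, median 0.01), the integrated stress response (15, 0.07), glucocorticoid response (17, 0.14) and autophagy (22, -0.06) had no call. Nor had the Wnt (25, 0.17), Notch (15, 0.05) and EGF receptor (17, -0.06) lists. In the EGF receptor list the ligand Tgfa was lower in every aged library, with means of 10.9 and 7.95 CPM (-0.46, SE 0.14; adjusted p = 0.143, edgeR). The lysosomal protease Ctsl was higher in every aged library, with means of 24.2 and 40.2 CPM (0.73, SE 0.22; adjusted p = 0.154). Over all lists, 9 of 816 genes (1.1%) were called, against 0.632% of all genes. Members and lists were chosen with earlier results of these data known, so the gap between these shares is no test of the lists.

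Markers of other cell types had no call. Of 16 Langerhans cell markers 6 were positive (median -0.01), with summed levels of 175 to 312 CPM in adult and 122 to 310 CPM in aged libraries. Of 15 epidermal T cell markers 14 were negative (median -0.29), with sums of 87.7 to 183 CPM in adult and 73.5 to 196 CPM in aged libraries. Of 11 melanocyte markers 8 were positive (median 0.22); their sum was 134 CPM in aged replicate 3 and at most 87.6 CPM in the others. Markers of endothelium (9 tested, median -0.09), macrophages and neutrophils (11, -0.03), fat cells (3, -0.24), muscle (7, 0.12), red cells (4, -0.29) and Merkel cells and nerve (6, 0.11) had no call.

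The other times of day share no library with ZT4 and show how far its differences recurred. Of the 114 genes, 102 (89.5%) had the same sign at all 5 other times, against 19.5% of all genes tested, and 45 were called in the same direction at every one of them. At ZT0, where 4.46% of genes were called, 46 of the 66 rises and 40 of the 48 falls were called the same way. The counts were 36 and 34 at ZT8 (2.19% of genes called), 39 and 31 at ZT12 (1.10%), 35 and 29 at ZT16 (1.97%) and 57 and 41 at ZT20 (20.0%). In 28 genes all 24 aged libraries lay apart from all 24 adult libraries, and all 28 were called at ZT4: 15 rises and 13 falls. The 24 of each age include the ZT4 libraries, so these genes are apart at ZT4 by definition and their calls there show no recurrence. All times were fitted in 1 model with a shared estimate of spread.

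**Figure D4:**
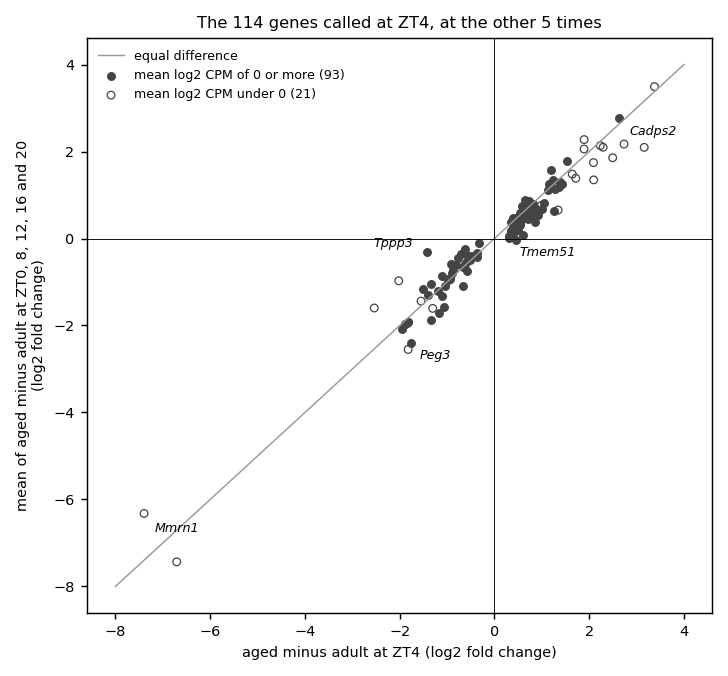
Aged minus adult log2 fold change at ZT4 (horizontal axis) against its mean at the other 5 times (vertical axis) for the 114 genes called at ZT4, with a line of equal difference. Open points are the 21 genes with a mean log2 CPM under 0; points lie near the line, with Tppp3 at -1.42 and -0.32 among the farthest from it.

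A difference between ZT4 and the mean of the other times passed the test for no gene (0% of 18044; smallest adjusted p 0.262, edgeR). At an unadjusted p under 0.05 there were 809 genes, a smaller share than the 0.05 reached when no gene differs. The smallest p belonged to Mex3d, an RNA-binding ubiquitin ligase. At ZT4 it was at 9.62, 8.25, 7.40 and 7.66 CPM in adult and 10.3, 10.1, 9.53 and 9.52 CPM in aged libraries, overlapping by 1 adult value. Its log2 fold change was 0.26 (SE 0.08) at ZT4 and -0.16 on average elsewhere, a difference of 0.42 (SE 0.08). With DESeq2 (adjusted p = 0.0372) and without adult replicate 1 (adjusted p = 0.0119) Mex3d was the 1 gene that passed; limma passed none. Chd4, a chromatin remodeller, also had a small unadjusted p for this difference (0.000282, edgeR), with a mean of 294 CPM in adult and 330 CPM in aged libraries at ZT4 and a difference of 0.23 from the other times.

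Among the 114 genes, 9 were called in the same direction at no other time: 7 rises (Axl, Map3k11, Tmem51, Haus7, Zfp850, E130317F20Rik and 1 gene without a symbol) and 2 falls (Tppp3 and Cdk5r1). E130317F20Rik was called in the opposite direction at ZT0. For none of the 9 did the difference from the mean of the other times pass the test. Map3k11, a kinase upstream of JNK, was at 71.0, 61.7, 59.4 and 58.7 CPM in adult and 80.3, 77.2, 79.2 and 72.9 CPM in aged libraries. All aged values lay above the adult ones, and Map3k11 rose by 0.30 (SE 0.07; adjusted p = 0.0285, edgeR). Its call held only without adult replicate 1 or aged replicate 4 among the 8 fits that left out a library (adjusted p of at most 0.164 in the others). At the other times its log2 fold change was between -0.08 and 0.18. Axl ranged between -0.08 and 0.30 at the other times. Tppp3 was negative at ZT0, ZT16 and ZT20 and positive at ZT8 (0.49) and ZT12 (0.30), uncalled at each.

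Taken singly, the age difference at ZT4 departed from that at ZT0 in 17 genes (0.0942%). It departed from that at ZT8, ZT12, ZT16 or ZT20 in none (0% each). Without adjustment 744, 526, 1739 and 2026 genes had a p under 0.05 there (edgeR). When no gene differs, a share of 0.05 is reached, which lies above the counts of ZT8 and ZT12 and below those of ZT16 and ZT20. The lncRNA E130317F20Rik was at 11.3, 9.93, 11.4 and 11.8 CPM in adult and 15.5, 16.5, 13.2 and 15.2 CPM in aged libraries at ZT4. It rose by 0.45 there with no overlap, while at ZT0 its log2 fold change was -0.40, a difference of 0.84 (SE 0.15; adjusted p = 0.0192, edgeR). Its call at ZT4 held in 1 of the 8 fits that left out a library, the one without aged replicate 3 (adjusted p of at most 0.186 in the others). Apoc1, a lipoprotein component, had a log2 fold change of 0.23 at ZT4 and -0.52 at ZT0. Kcnj10, a potassium channel, had -0.28 and 0.77, and Clec4a2, a lectin receptor of myeloid cells, -0.30 and 0.75. None of the 17 passed against the mean of the other times.

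**Figure D5:**
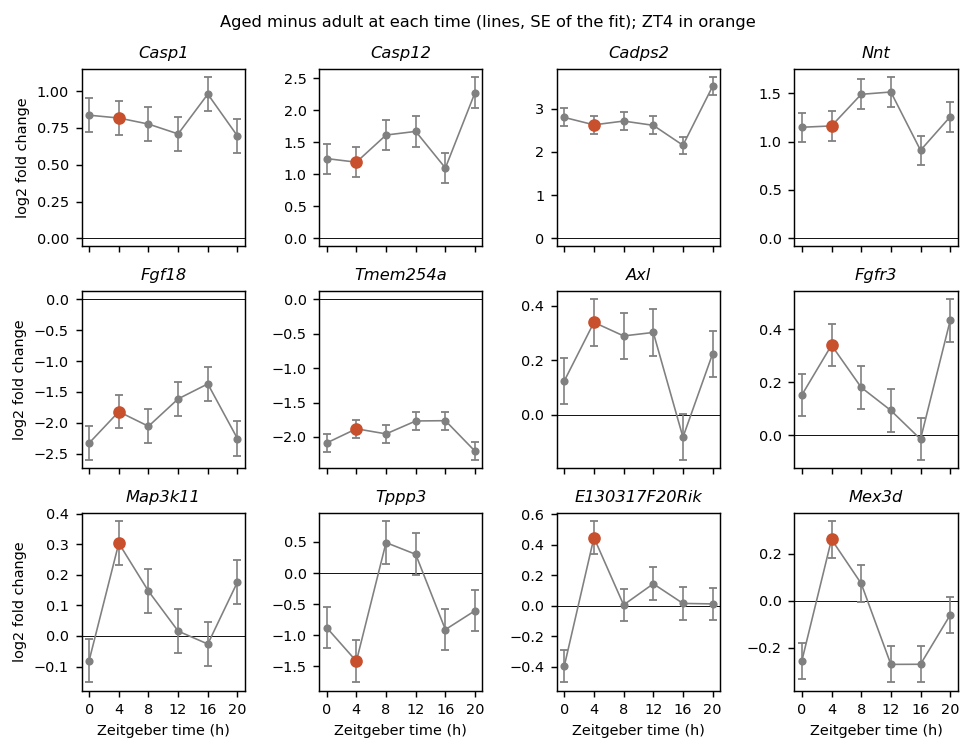
Aged minus adult log2 fold change at each Zeitgeber time for 12 genes, with the SE of the fit as lines, ZT4 in orange and a separate vertical axis in each panel. Casp1 lay between 0.70 and 0.98 at all 6 times and Cadps2 between 2.16 and 3.52, while Mex3d and E130317F20Rik were positive at ZT4 and negative at ZT0.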

How the data were processed

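The authors deposited 1 table of raw read counts per Entrez gene for all 48 libraries. Per the submitters' processing notes, Trim Galore, STAR 2.7.10a and featureCounts were used with the mouse genome mm10 (GRCm38). The sources used here do not state the annotation or the strand setting, so reads of antisense pairs cannot be told apart. Symbols and coordinates came from RefSeq (GRCm38.p6), which named 23476 of 24996 identifiers; the other 1520 held 3.66% of the counts.

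Counts were fitted with edgeR 4.0.16 (R 4.3.3). Its low-count filter used 10 counts as the minimum and 15 as the minimum total. Library sizes were scaled with TMM (trimmed mean of M values), and a robust quasi-likelihood model held 1 mean for each of 12 groups (36 residual degrees of freedom). The age difference at ZT4, and its difference from the mean age difference of the other 5 times and from each of them, were tested two-sided with Benjamini-Hochberg adjustment over 18044 genes. A call is an adjusted p under 0.05. Log2 fold changes are aged minus adult; log2 CPM used a prior count of 2, and the biological coefficient of variation of the median gene was 13.3%. Each SE was derived from the test of the fit, as the size of the log2 fold change divided by the square root of its F value. The 95% intervals were built from these SEs. The fit was tested on simulated counts.

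Named genes were the 15 largest rises and 15 largest falls among called genes whose mean log2 CPM was 0 or more and whose symbol is established. From each of 46 lists (893 entries) every called member was named, or the 3 with the smallest p. Arntl, Clock, Yap1, Casp1, Casp4, Casp12, Peg3, Fgf18 and Nnt were always named, as were the 10 genes with the smallest p against the other times and called genes within 500 kb of each other. Members and lists were chosen with earlier results of these data known. Not every gene the rule names is described.

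Alternatives were DESeq2 1.42.0, its size factors within edgeR, library totals, limma 3.58.1 (log2 CPM), the filter dropped or made stricter, a threshold of 0.01, the 8 ZT4 libraries alone, a block for the replicate number, and each library left out in turn. After the data were seen, fits without the libraries highest in hair shaft and dermal genes (adult replicate 2, aged replicate 3) and without those highest in Langerhans cell and immediate early genes (replicate 1 of both ages) were added. No pair of ZT4 libraries of the same age held identical or near-identical counts, and other pairs were not compared.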

Additional observations from a re-analysis of the deposited data

Results flagged for a closer look

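In groups of 4 libraries, 1 library stood far from the other 3 in 29 of 452 groups examined (6.42%), where chance gives about 1 in 20. Aged replicate 3 was such a library most often. It was high in Krt33b (32.8 CPM, others at most 0.42), Msx1 (3.27 CPM), Msx2 (14.3 CPM), Rspo1 (0.914 CPM), Fabp4 (2.54 CPM), Fn1 (15.4 CPM), Pmel (20.9 CPM), Lhfpl1 (6.11 CPM) and Stag3 (2.36 CPM), and in the mean of the skeletal muscle list (0.587 on the centred log2 scale). Its hair shaft and dermal genes were high as well.

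Adult replicate 4 was at 147.7 CPM in Krt76, an epithelial keratin, against at most 0.235 CPM in the other adult libraries, and at 26.9 CPM in Egr3. Adult replicate 2 was high in Tppp3 (96.9 CPM), Fabp4 (2.97 CPM) and Ly6c2 (1.80 CPM), low in Gm11201 (3.90 CPM), and high in the mean of the Hippo list (0.141). Adult replicate 1 was high in the Notch genes Jag2 (202.1 CPM) and Lfng (33.5 CPM), in Rfc3 (11.6 CPM) and in the mean of the NF-kB list (0.201). It was low in Chd4 (276.0 CPM) and in the means of the antimicrobial list (-0.189) and of the cholesterol synthesis list (-0.422). Adult replicate 3 was high in Pde1c (5.30 CPM). Aged replicate 4 was low in Nnt (18.1 CPM, others 22.0 to 22.5) and high in Ksr1 (27.1 CPM) and Gm11201 (8.55 CPM), and aged replicate 1 was high in N6amt1 (12.4 CPM).

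The signed log2 fold change (aged minus adult) was higher at ZT4 than at ZT0 in Mex3d (by 0.51 on the log2 scale), E130317F20Rik (0.84), Entrez100503567 (1.08), 4930539J05Rik (0.62), AV051173 (0.79), Arl6ip5 (0.51) and Apoc1 (0.75), each past the test of the difference in edgeR. It was lower at ZT4 in Tmco1 (-0.55), Kcnj10 (-1.04), Mfsd4b5 (-1.12), Snora81 (-1.43), Six2 (-1.31), 4930480K15Rik (-2.04), Entrez100503942 (-0.56), Snord17 (-1.37), Clec4a2 (-1.05) and Mrgpre (-1.10).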

How the results depend on the processing

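The sign of the age difference turned for none of the 30 genes ranked by size when 1 library was left out. Of the 114 genes called, 17 were called under every alternative: Ajm1, Bend4, Cadps2, Casp1, Casp4, Dpysl3, Entpd4b, Fam177a, Fam177a2, Fgf18, Gpha2, Nnt, Rps4l, Tmem254a, Tmem254b, Tmem254c and Wdfy1. The counts moved by over 1.5 times in several cases. The 8 ZT4 libraries alone gave 12 higher and 11 lower, with 22 of the 23 among the 114. This fit has fewer libraries to estimate the spread, and Casp12, Peg3, Lmo7, Ephb2 and Cacna1c were among the genes that lost their calls in it. DESeq2 gave 95 higher and 82 lower, and included 113 of the 114. A threshold of 0.01 left 30 and 24. Leaving out 1 library gave 28 to 80 higher and 21 to 51 lower, and without adult replicate 2 and aged replicate 3 there were 37 and 30. Genes that differed from the other times numbered 0 to 1 when 1 library was left out, and 1 with DESeq2. The cause of these shifts was not tested. The replicate number as a block gave 61 and 43. In this block fit 11 of the 114 genes lost their calls, among them Axl, Card6, Cdk5r1, Ifi30, Pde1c, Tmem51 and Tppp3. The deviations of same-numbered libraries had correlations of 0.556, -0.443, 0.142 and 0.307. With 4 libraries per age, these values cannot settle whether the numbers pair the libraries. Some uncalled differences turned sign. Leaving out 1 library moved Ccnb1 between -0.45 and 0.0096, Cdc6 between -0.0028 and 0.38, Fabp4 between -1.88 and 1.24, Krt33b between -3.76 and 3.24, Krt76 between -7.91 and 0.37, Msx1 between -2.02 and 1.43, Msx2 between -0.27 and 0.53, Ube2c between -0.32 and 0.0144, Vwf between -0.32 and 0.0022 and Yap1 between -0.0763 and 0.0204. Without adult replicate 2 and aged replicate 3, Cdc6 was at -0.0145, Krt33b at -1.86, Msx1 at -1.69, Msx2 at -0.0241, ND4 at 0.0359, Plin4 at -0.0166 and Yap1 at 0.0283. Without replicate 1 of both ages Yap1 was at 0.0155, and Msx1 was at -0.58 in limma. With 4 libraries per age and a count of 3 allowed by a count of 0, genes under 0.0715 CPM cannot be compared.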

Other observations

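Ide, the insulin-degrading enzyme, was at 107.9, 199, 190.1 and 253 CPM in the adult and 106.2, 125, 124 and 121 CPM in the aged libraries. Adult replicate 1 lay within the aged range and the other 3 adult libraries above it. The difference did not pass at ZT4 (-0.66, SE 0.18; adjusted p = 0.0739, edgeR), while Ide was called lower at each of the other 5 times, with log2 fold changes between -1.15 and -0.88 (adjusted p of at most 0.00203). Ide lies on chromosome 19 from 37268743 to 37334544 (GRCm38), near Fgfbp3, which was also called lower at each of those times. Adult replicate 1 was the lowest adult library in both genes, and a shared cause was not tested. Bmpr1b, a BMP receptor, was higher in every aged library, with means of 0.917 and 2.54 CPM (1.46, SE 0.49; adjusted p = 0.246). The cold-induced RNA-binding gene Rbm3 was higher in every aged library, with means of 139.7 and 189 CPM (0.43, SE 0.14; adjusted p = 0.217). Its overlapping lncRNA Rbm3os went from a mean of 15.01 to 27.2 CPM, a rise of 0.85 (SE 0.18; adjusted p = 0.00958); its call was lost without adult replicate 2 or 4 (adjusted p of at most 0.10). Reads of Xist numbered between 101960 and 127920 in all 8 ZT4 libraries, and those of the Y-linked Ddx3y between 1 and 5.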
